A study of Homo sapiens with 6 samples.

Results

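The mRNAs of 9 enzymes that lead from acetyl-CoA to squalene, ahead of the step catalysed by squalene epoxidase (SQLE), were examined in U2OS, an established human osteosarcoma cell line. They were chosen by pathway position and matched by Ensembl identifier, and are 9 of the 19937 genes in the count table. All 9 passed the filter on low counts and were among the 12450 genes tested. Cells had been infected with lentivirus that carried a hairpin in the pGIPZ plasmid and were kept under puromycin until stable, and RNA-seq followed. In shSQLE cells (genotype label SQLE-shRNA) the hairpin targeted SQLE, and in shControl cells (scrambled-shRNA) it was a scrambled sequence, with 3 libraries of poly(A) RNA in each group. Both groups therefore share the vector, the infection and the drug selection. The hairpin was 1 chosen from several designs, and the labels do not name it. For experiments in general the methods speak of technical replicates within an independent test, and the sequencing section names no separate cultures, so that SDs and p-values measure the spread between these libraries, which may be technical.

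The mevalonate pathway supplies both sterols and isoprenoids. ACAT2, the cytosolic acetoacetyl-CoA thiolase, joins a pair of acetyl-CoA molecules, and HMGCS1, the cytosolic HMG-CoA synthase, adds another to give HMG-CoA. The reductase step that follows was not analysed here. Mevalonate kinase (MVK), phosphomevalonate kinase (PMVK) and diphosphomevalonate decarboxylase (MVD) turn mevalonate into isopentenyl diphosphate, which IDI1 isomerises. Farnesyl diphosphate synthase (FDPS) and geranylgeranyl diphosphate synthase (GGPS1) lengthen the chain, and squalene synthase (FDFT1) joins a pair of farnesyl groups into squalene, the substrate of SQLE. When sterol in the endoplasmic reticulum is low, SCAP escorts SREBP transcription factors to the Golgi for cleavage, and many of these enzyme genes are known SREBP targets. INSIG proteins hold SCAP back when sterol is plentiful.

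Promoter windows from RefSeq (GRCh38.p14, 250 bases before to 50 after the start) were matched for 7 of the enzymes: HMGCS1, MVK, PMVK, MVD, IDI1, FDPS and GGPS1. SREBPs act with NF-Y, which binds the CCAAT box, so the windows were searched on both strands for that motif, for the core of a sterol regulatory element, TCACNCCA, and for the GC box, GGGCGG. Of the 12 windows of these genes, 7 held a CCAAT box, against 34.6% of all 35116 windows. Counted by gene, 6 of the 7 had at least 1 in some window and PMVK had 0. That count has no share over all genes beside it, and a gene with several windows has more room for a match. The sterol element core was in 1 window, that of MVK, against 3.95% of all windows, and the GC box was in 11 windows, against 45% of all. Windows of 1 gene can overlap, and a match of letters is not a binding site. The windows of the pair of enzymes with the most AT-rich transcripts (HMGCS1, IDI1) and of the pair with the most GC-rich ones (MVK, MVD) are shown because these pairs went opposite ways between control libraries. Capitals mark CCAAT boxes, which read ATTGG where they lie on the other strand, and the sterol element core, and each sequence is written along the strand of its gene.
HMGCS1 chr5:43313363-43313662, minus strand: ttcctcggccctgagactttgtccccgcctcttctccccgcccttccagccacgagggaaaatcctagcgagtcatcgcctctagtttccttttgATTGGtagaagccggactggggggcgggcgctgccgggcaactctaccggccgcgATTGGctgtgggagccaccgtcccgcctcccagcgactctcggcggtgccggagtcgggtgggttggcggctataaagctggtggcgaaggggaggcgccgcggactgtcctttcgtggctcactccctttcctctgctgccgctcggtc
IDI1 chr10:1048837-1049136, minus strand: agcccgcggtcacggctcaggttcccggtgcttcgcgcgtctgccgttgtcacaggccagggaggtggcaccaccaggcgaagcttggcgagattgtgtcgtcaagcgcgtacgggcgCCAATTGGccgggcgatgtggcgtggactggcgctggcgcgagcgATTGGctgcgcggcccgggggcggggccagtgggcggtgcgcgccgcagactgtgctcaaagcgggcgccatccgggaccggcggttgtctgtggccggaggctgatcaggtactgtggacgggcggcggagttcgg
MVK chr12:109573544-109573843, plus strand: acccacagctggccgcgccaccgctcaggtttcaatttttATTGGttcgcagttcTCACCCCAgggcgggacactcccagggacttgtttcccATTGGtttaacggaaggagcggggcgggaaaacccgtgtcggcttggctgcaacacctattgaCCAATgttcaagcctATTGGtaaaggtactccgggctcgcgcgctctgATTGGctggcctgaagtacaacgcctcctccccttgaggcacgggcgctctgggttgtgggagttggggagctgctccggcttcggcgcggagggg
MVD chr16:88663042-88663341, minus strand: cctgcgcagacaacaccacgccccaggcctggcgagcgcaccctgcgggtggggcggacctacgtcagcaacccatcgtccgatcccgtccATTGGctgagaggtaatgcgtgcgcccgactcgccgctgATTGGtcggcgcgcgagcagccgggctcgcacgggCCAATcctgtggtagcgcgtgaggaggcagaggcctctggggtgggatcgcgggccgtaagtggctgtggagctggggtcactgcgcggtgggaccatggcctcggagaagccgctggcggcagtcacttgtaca
In the IDI1 window a forward and a reverse CCAAT box overlap. In the windows shown, MVK had 5 CCAAT boxes, MVD and IDI1 had 3 each, and HMGCS1 had 2. HMGCS1 and IDI1 have other windows that are not shown. That of HMGCS1 held 0 CCAAT boxes, and those of IDI1 held 0 and 2.

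The libraries held between 12212378 and 14393292 counts on genes. Normalized counts were scaled to a common library size by TMM. SQLE checked the labels: it had 1349, 1867 and 1924 normalized counts in shControl libraries 1, 2 and 3, and 229, 204 and 219 in those of shSQLE, a log2 fold change of -2.98. Of the mesenchymal and osteoblast markers, VIM, SPARC, RUNX2 and COL1A1 had at least 103 counts in every library, whereas SP7 and IBSP had 0 counts in all 6, ALPL and BGLAP had at most 5, and COL1A2 had 0 to 6. The leukocyte genes PTPRC and CD3E were at 0 in every library and CD68 had 3 to 11 counts, with list sums of 3.62 to 8.08 normalized counts in shControl and 3.08 to 10.8 in shSQLE. The endothelial genes PECAM1, VWF and CDH5 together came to 12.7 to 15.7 normalized counts in shControl and 2.06 to 6.90 in shSQLE. EPCAM, an epithelial gene, had 46 to 76 counts, and the summed epithelial markers came to 52.5 to 55.4 normalized counts in shControl and 58.6 to 74.4 in shSQLE. The part of these differences in the results was not tested. Counts of shControl replicate 1 differed from those of replicates 2 and 3 by a chi-square per degree of freedom of 53.9 and 63.8 (1 being sampling noise), whereas replicates 2 and 3 differed from each other by 2.83. The shSQLE replicates differed by 3.40 (1 and 2), 9.84 (1 and 3) and 15.9 (2 and 3), also above sampling noise. Because shControl replicate 1 stood furthest apart, the fold changes of the 9 enzymes are also given without it.

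Silencing of SQLE was set against the scrambled hairpin to ask whether the enzymes ahead of the block changed with it. None of the 9 did at an adjusted p of 0.05 (quasi-likelihood test of edgeR, adjusted by Benjamini and Hochberg over all genes tested), where 3.21% of all genes were called. None reached an unadjusted p of 0.05 either (0 genes), where of all 12450 genes 1231 did so lower and 601 higher. DESeq2 also called 0 of the enzymes at both levels, and at the adjusted level it called 714 of 15995 genes. Of the 9, 5 had a negative log2 fold change, and the median was -0.03, against -0.01 over all genes. Summed over the 9 enzymes, their mRNA made up 1107, 1087 and 1105 CPM (counts out of each 1e6 of the library) in the shControl replicates and 1103, 1118 and 1112 in the shSQLE replicates. The means were 1100 ± 10.9 and 1111 ± 7.26 CPM (SD, n = 3 each; two-sided exact permutation test, p = 0.3). The sum varied little between libraries, although single enzymes varied more. In shControl replicate 1, HMGCS1 and IDI1 were lower than in replicates 2 and 3, whereas FDPS, MVD, MVK and PMVK were higher. These differences partly cancelled in the sum. The sum is also not per length and is weighted to HMGCS1 and FDFT1, which had the most counts. A steady sum therefore does not show that each enzyme kept its level. In a bulk sample a change in the RNA of a gene per cell and a change in the make-up of the population cannot be told apart.

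**Figure D1:**
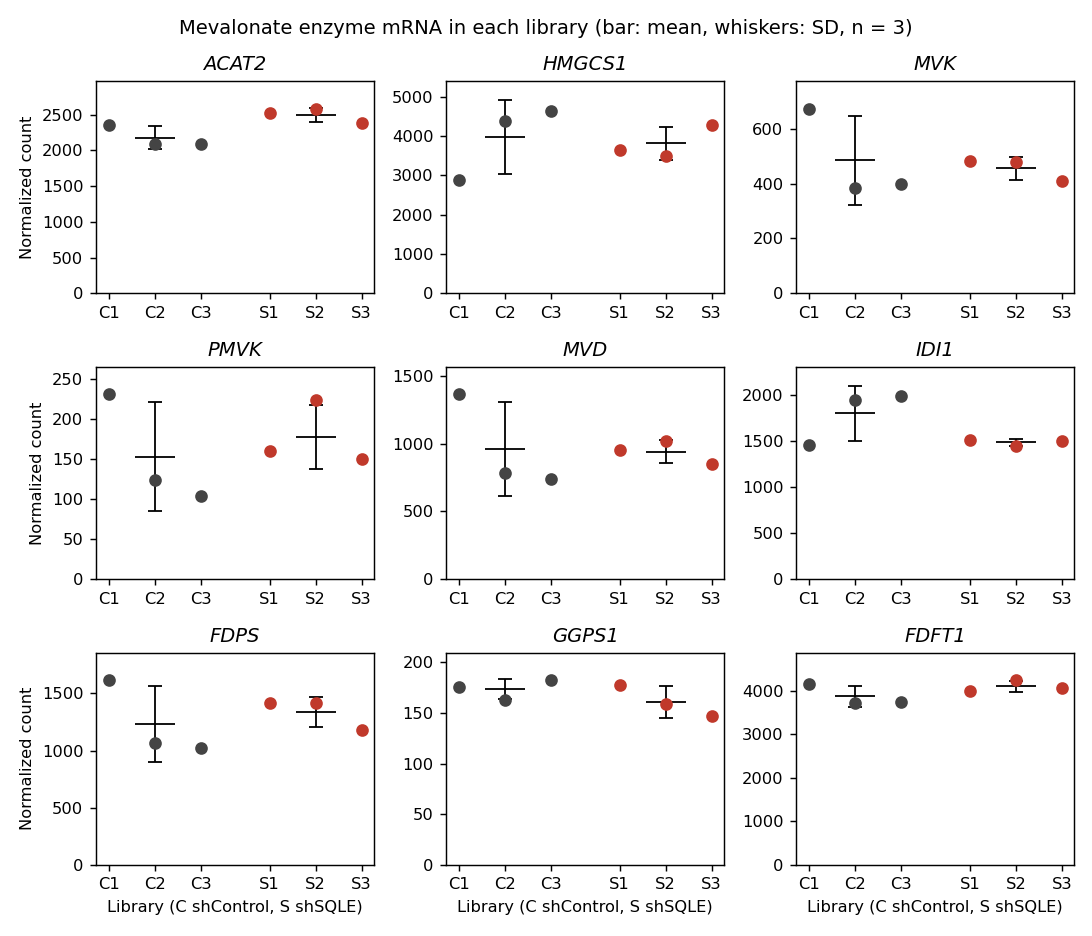
Normalized counts of each enzyme (y axis, starting at 0) in the 3 shControl (grey, C1 to C3) and 3 shSQLE (red, S1 to S3) libraries, with the group mean and SD. ACAT2 is the enzyme whose groups do not overlap, and in MVK, PMVK, MVD and FDPS shControl replicate 1 lies above all 5 other libraries.

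The first enzyme, ACAT2 (chromosome 6, 159762045 to 159779112, + strand, with this and the following gene spans on GRCh38), had 2358, 2086 and 2088 normalized counts in the shControl replicates and 2521, 2582 and 2388 in the shSQLE replicates. Every shSQLE library lay above every shControl library, by a narrow gap (p = 0.1 in a two-sided exact permutation test, where 3 libraries against 3 can give nothing smaller). It was the 1 enzyme of the 9 whose groups did not overlap, where 22.1% of all genes did not. The log2 fold change of ACAT2 was 0.20 (standard error 0.10, 95% interval -0.04 to 0.44, adjusted p = 0.447 from edgeR). Its exons share 454 nt with TCP1, a chaperonin subunit gene on the opposite strand, and the counting is not stated to use strand. TCP1 had 5528 to 6134 normalized counts in shControl and 6711 to 6963 in shSQLE, and its log2 fold change was 0.22 (adjusted p = 0.334). The part of TCP1 reads in the ACAT2 counts was not tested. HMGCS1, FDPS, IDI1 and FDFT1 share 2497, 693, 643 and 217 exonic nt with lncRNA genes on the opposite strand that are not in the count table. The part of such reads in their counts was not tested either.

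HMGCS1 (chromosome 5, 43287470 to 43313512, - strand) had 2889, 4381 and 4637 normalized counts in the shControl replicates and 3650, 3503 and 4297 in the shSQLE replicates. All 3 silenced libraries lay inside the control range, between the low replicate 1 and the high replicates 2 and 3. The means were 3969 ± 944 and 3817 ± 423 (SD, n = 3 each), and the log2 fold change was -0.06 (standard error 0.18, 95% interval -0.48 to 0.37, adjusted p = 0.932 from edgeR). Within a library, which needs no scaling, there were 0.467, 0.426 and 0.415 SQLE counts per HMGCS1 count in shControl, and 0.0628, 0.0582 and 0.0509 in shSQLE.

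The kinases and the decarboxylase were alike in where the control libraries lay. MVK (chromosome 12, 109573255 to 109598125, + strand) had 673, 385 and 399 normalized counts in the shControl replicates and 482, 478 and 408 in the shSQLE replicates. PMVK (chromosome 1, 154924740 to 154936719, - strand) had 231, 124 and 104 in shControl and 160, 224 and 150 in shSQLE. MVD (chromosome 16, 88651935 to 88663161, - strand) had 1365, 788 and 740 in shControl and 958, 1018 and 852 in shSQLE. In each of these genes shControl replicate 1 was the highest of the 6 libraries and shControl replicates 2 and 3 were the lowest, with the silenced libraries between them. Their log2 fold changes were -0.09 for MVK (95% interval -0.61 to 0.43), 0.23 for PMVK (-0.49 to 0.94) and -0.03 for MVD (-0.57 to 0.51), and their adjusted p-values were 0.914, 0.821 and 0.975 from edgeR. MVK shares 225 exonic nt with MMAB, a cobalamin gene on the opposite strand, which had the same high replicate 1 (629 normalized counts, against 443 and 422 in replicates 2 and 3).

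IDI1 (chromosome 10, 1039152 to 1049119, - strand) was the enzyme with the most negative change. It had 1460, 1952 and 1995 normalized counts in the shControl replicates and 1510, 1446 and 1505 in the shSQLE replicates. The silenced libraries were nearly equal (1487 ± 35.6, SD, n = 3), and they lay below shControl replicates 2 and 3 and about level with replicate 1 (1802 ± 298 over the 3). The log2 fold change of IDI1 was -0.28 (standard error 0.14, 95% interval -0.60 to 0.04, adjusted p = 0.425 from edgeR; two-sided exact permutation test, p = 0.3). The annotation names 3 pseudogene copies of IDI1, with which reads could be shared.

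The prenyl chain enzymes differed from each other. FDPS (chromosome 1, 155308748 to 155320666, + strand) had 1615, 1063 and 1018 normalized counts in the shControl replicates and 1413, 1416 and 1183 in the shSQLE replicates. FDPS had the same order of libraries as PMVK and MVD. Its log2 fold change was 0.12 (95% interval -0.32 to 0.56, adjusted p = 0.854 from edgeR), and 8 pseudogene copies of FDPS are annotated. GGPS1 (chromosome 1, 235327350 to 235344532, + strand), which leads to the geranylgeranyl branch, had 176, 163 and 182 in shControl and 178, 159 and 147 in shSQLE. These libraries overlapped, with a log2 fold change of -0.10 (95% interval -0.43 to 0.22, adjusted p = 0.820 from edgeR). GGPS1 shares 1422 exonic nt with an overlapping protein-coding gene on the same strand (ENSG00000285053) that had 25.4 to 59.6 normalized counts, so that its own reads may have been left out or split.

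FDFT1 (chromosome 8, 11795573 to 11839395, + strand), the last enzyme before SQLE, had 4158, 3716 and 3735 normalized counts in the shControl replicates and 4003, 4242 and 4069 in the shSQLE replicates. The groups overlapped through shControl replicate 1. The log2 fold change of FDFT1 was 0.09 (standard error 0.10, 95% interval -0.14 to 0.31, adjusted p = 0.776 from edgeR). Per FDFT1 count there were 0.324, 0.503 and 0.515 SQLE counts in the shControl replicates. In the shSQLE replicates there were 0.0572, 0.0481 and 0.0538 (p = 0.1 in a two-sided exact permutation test). SQLE is the target of the hairpin, so such a ratio falls for any gene that did not fall as far. The p therefore reports the fall of SQLE and is no test of FDFT1.

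A p that misses the threshold does not show that an enzyme stayed the same, and the intervals say how large a change these libraries leave room for. The narrowest were those of FDFT1 and ACAT2, which span folds of 0.907 to 1.24 and of 0.973 to 1.35. The widest was that of PMVK, one of the pair with the fewest counts, which spans folds of 0.712 to 1.92. No lower bound went below that of MVK, a fold of 0.656 (log2 -0.61), whereas the interval of SQLE ran from -3.37 to -2.59 on the log2 scale.

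**Figure D2:**
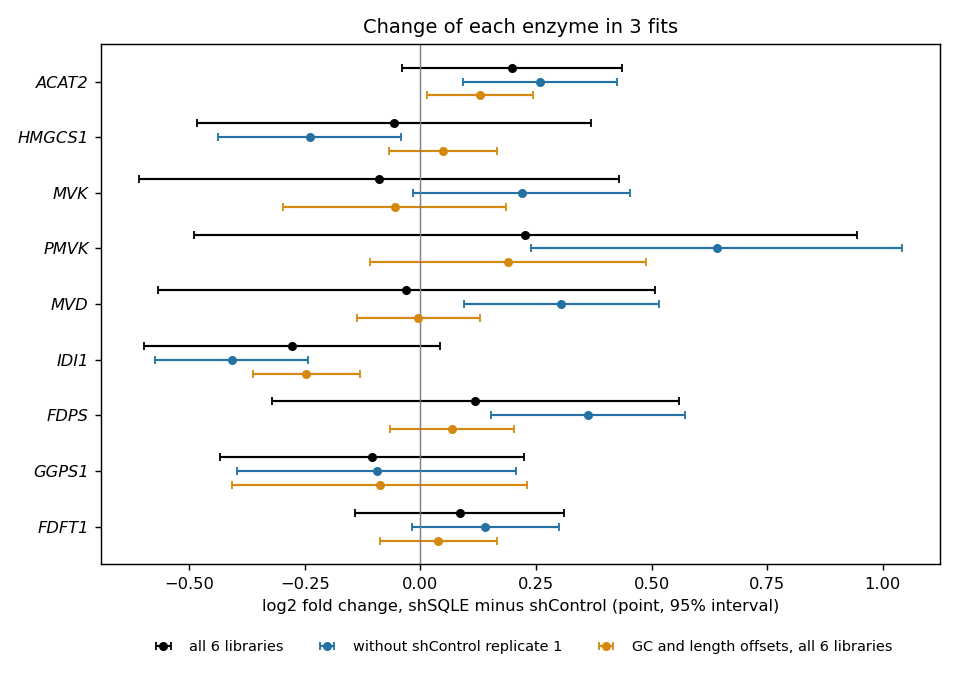
Log2 fold change of shSQLE minus shControl for each enzyme (points) with its 95% interval (lines), fitted on all 6 libraries (black), without shControl replicate 1 (blue) and with GC content and transcript length as offsets (orange). All black intervals cross 0, and in the blue and orange fits the intervals of IDI1 (below 0) and ACAT2 (above 0) exclude 0.

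The spread among controls followed the base composition of the transcripts for most of the enzymes. The canonical transcripts of HMGCS1 and IDI1 have 39.0% and 37.9% GC, and in shControl replicate 1 their normalized counts were 0.64 and 0.44 lower on the log2 scale than the mean of replicates 2 and 3. FDPS, PMVK, MVK and MVD have 55.05%, 59.0%, 60.01% and 65.5% GC, and in them replicate 1 was higher by 0.63, 1.02, 0.78 and 0.84. ACAT2, FDFT1 and GGPS1, with 45.5%, 46.5% and 40.4%, lay between (0.18, 0.16 and 0.02). Genes in general followed GC content too. Among genes averaging 100 normalized counts or more, the median of this difference went from -0.60 in 1780 genes under 40% GC to 0.60 in 1447 genes at 60% or more. It was -0.36 at 40% to 45% and -0.13 at 45% to 50%, so GGPS1, ACAT2 and FDFT1 lay above genes of like GC content. The silenced libraries lay part of the way, with medians of -0.24 under 40% and 0.22 at 60% or more against shControl replicates 2 and 3. Whether this order comes from library preparation, sequencing or the cells was not tested.

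**Figure D3:**
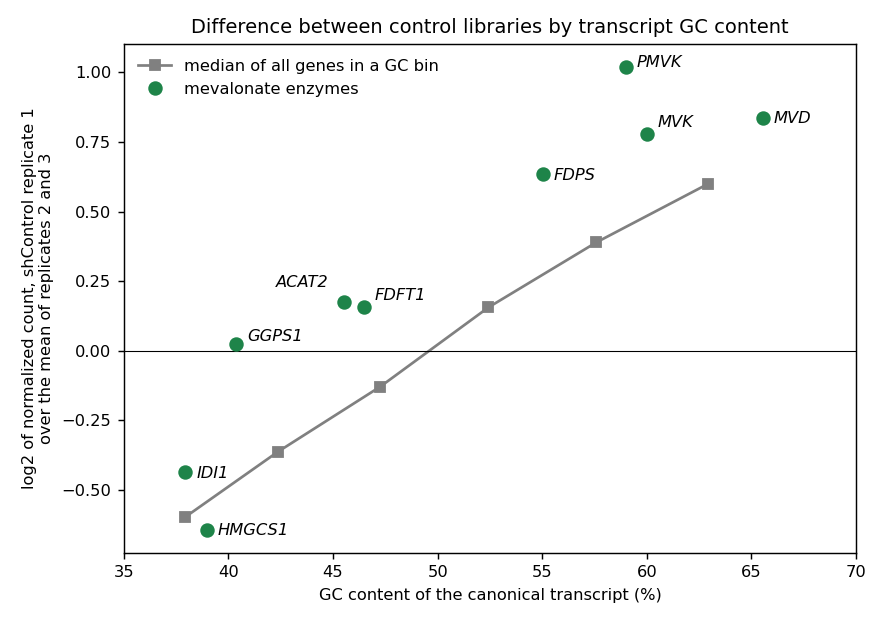
Log2 of the normalized count in shControl replicate 1 over the mean of replicates 2 and 3 (y axis) against the GC content of the canonical transcript in percent (x axis), for the 9 enzymes (green) and as the median of all genes averaging 100 normalized counts or more in 6 GC bins (grey squares, at the median GC of the bin). Enzymes and bin medians both run from below 0 at low GC to above 0 at high GC, from -0.60 to 0.60 for the bins.

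The calls changed when shControl replicate 1 was left out. Without it, 5 of the 9 enzymes passed an adjusted p of 0.05, but so did 33.9% of all genes, and the median of the 9 moved to 0.22. IDI1 was lower by 0.41 on the log2 scale (95% interval -0.57 to -0.24, adjusted p = 0.00202 from edgeR), while PMVK, FDPS, MVD and ACAT2 were higher (0.64, 0.36, 0.30 and 0.26, adjusted p from 0.0129 to 0.0295). The higher enzymes other than ACAT2 are GC-rich and IDI1 is AT-rich, the direction that the bins give against replicates 2 and 3. HMGCS1 was at -0.24 (adjusted p = 0.0597), and MVK, FDFT1 and GGPS1 were at 0.22, 0.14 and -0.09.

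With smooth offsets for the GC content and length of transcripts in each library, a correction chosen after seeing the data, the controls drew together for most enzymes. The SD of the shControl replicates on the log2 CPM scale went from 0.37 to 0.02 for HMGCS1, from 0.49 to 0.03 for MVD, from 0.25 to 0.01 for IDI1 and from 0.37 to 0.05 for FDPS, but from 0.08 to 0.23 for GGPS1. In this fit 1 of the 9 enzymes was called, where 18.3% of all genes were. IDI1 was lower in shSQLE by 0.25 on the log2 scale (standard error 0.05, 95% interval -0.36 to -0.13, adjusted p = 0.00997 from edgeR), with adjusted log2 CPM of 7.03, 7.05 and 7.04 in the shControl replicates and 6.81, 6.805 and 6.78 in the shSQLE replicates. The groups of IDI1 no longer overlapped on this scale. Those of ACAT2 did not overlap either, at 7.41, 7.34 and 7.36 in the shControl replicates and 7.50 in each shSQLE replicate. The share of all genes without overlap on this scale was not computed. ACAT2 was at 0.13 (95% interval 0.01 to 0.24) and PMVK at 0.19 (-0.11 to 0.49), and neither passed. HMGCS1, MVD, FDFT1 and FDPS were at 0.05, -0.00493, 0.04 and 0.07, with 0.20 as their furthest bound. The offsets were estimated from these libraries and their error is not in the intervals.

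Levels differed more between enzymes than between groups. Per kilobase of canonical transcript, FDFT1 was the most abundant in shControl, at 141 ± 9.11 CPM (SD, n = 3), followed by ACAT2 at 106 ± 7.62. FDPS (64.5 ± 17.4), HMGCS1 (55.02 ± 13.1), IDI1 (48.8 ± 8.06) and MVD (39.7 ± 14.3) came next, and these 4 neighbours overlapped each other within their SDs, whereas FDFT1, ACAT2 and FDPS did not. MVK (12.7 ± 4.25) and PMVK (11.3 ± 5.05) were lower than MVD beyond their SDs and overlapped each other, and GGPS1, the branch enzyme, was lowest at 4.45 ± 0.256. Reads of GGPS1 in exons shared with ENSG00000285053 may have been left out or split, so the level of GGPS1 may be too low. In shSQLE the order was the same but for PMVK (13.2 ± 2.97), which stood above MVK (11.9 ± 1.09). FDFT1 stood at the 96.0th percentile of all genes tested on this scale and GGPS1 at the 34.9th. With the length of all annotated exons, ACAT2 (61.2) stood above FDFT1 (56.5), FDPS (24.6) came after HMGCS1 (44.4) and IDI1 (31.1), and MVK, whose annotated exons are far longer than its canonical transcript, stood below PMVK.

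**Figure D4:**
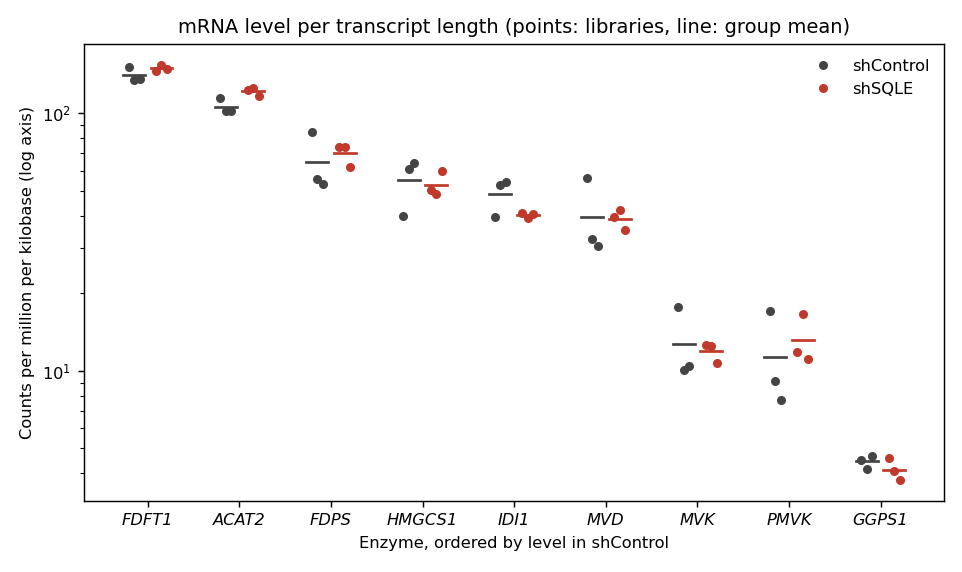
CPM per kilobase of canonical transcript (y axis, log scale) for each enzyme, in shControl (grey) and shSQLE (red) libraries, with a line at each group mean. The enzymes span from 4.45 for GGPS1 to 141 for FDFT1 in shControl, and within each enzyme the groups lie close together.

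The genes around the pathway were read from lists. Of the 10 sterol enzymes downstream of SQLE, 0 passed the adjusted p, 6 were negative and the median was -0.11. HSD17B7, a ketoreductase, was at -0.29 (95% interval -0.58 to 0.00390) with groups that did not overlap, and CYP51A1, the lanosterol demethylase, at -0.75 (adjusted p = 0.527). HSD17B7 passed with the offsets (-0.36, adjusted p = 0.0126), where 18.3% of all genes did. CYP51A1 passed without shControl replicate 1 (-1.11, adjusted p = 0.00514), where 33.9% of all genes did, but not with the offsets (adjusted p = 0.182). CYP51A1 had 35.8, 107 and 120 normalized counts in the shControl replicates and 49.9, 33.5 and 74.0 in the shSQLE replicates. Its groups overlapped through shControl replicate 1. Of the 19 genes that use the prenyl diphosphates, for protein prenylation, ubiquinone, dolichol and tRNA modification, 0 passed and the median was 0.03. The smallest p-values among them were those of COQ2 at 0.24, SRD5A3 at -0.31 and RABGGTA at -0.27 (adjusted p from 0.584 to 0.668). The median of all genes in this fit was -0.01.

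Of the 8 sterol sensing genes, 2 passed, both lower, where 3.21% of all genes passed and 354 of those 400 were lower. DESeq2 called 3 of the 8, and the count over all alternatives ran from 0 to 5. INSIG1 fell by 0.70 on the log2 scale, and SREBF1, which encodes SREBP-1 and overlaps RAI1 on the opposite strand, fell by 0.88 (adjusted p = 0.0293 and 0.0332 from edgeR). Leaving out 1 library ended the call of either gene in 5 of 6 cases, and the exception was the fit without shControl replicate 1, at -0.78 and -0.67. STARD4, a sterol carrier, was at -0.96 with groups that did not overlap but did not pass (adjusted p = 0.136 from edgeR). It passed with DESeq2 (-0.94, adjusted p = 0.0201), without shControl replicate 1 (-1.23, adjusted p = 1.72e-05) and with the offsets (-0.82, adjusted p = 0.00124). SREBF2, which encodes the SREBP known for driving the mevalonate genes, was at 0.02 (adjusted p = 0.965), and SCAP at 0.33 (adjusted p = 0.372). Without shControl replicate 1, 4 of the 8 sensing genes were called lower and 1 higher, where 33.9% of all genes passed. With the offsets the counts were also 4 lower and 1 higher, where 18.3% of all genes passed. The highest change of the list was 0.48 and 0.39 in these fits.

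**Figure D5:**
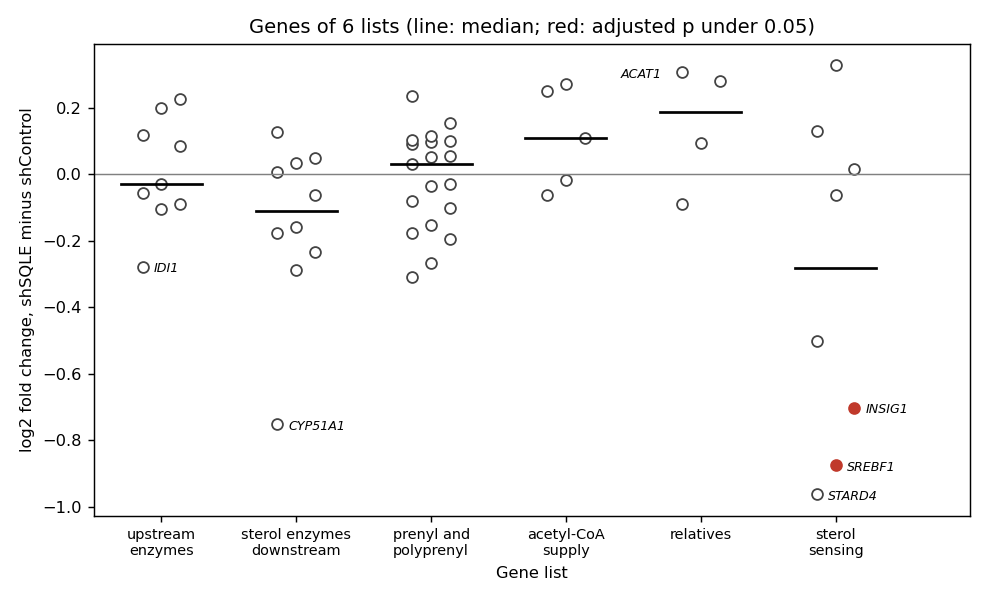
Log2 fold changes of shSQLE minus shControl (y axis) for the tested genes of 6 lists (x axis), with the median of each list as a line and genes at an adjusted p under 0.05 in red. INSIG1 (-0.70) and SREBF1 (-0.88) are the red points, and the 9 upstream enzymes lie between -0.28 and 0.23.

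The mean pattern of the 9 enzymes over the 6 libraries was most like that of ATOX1, ERF, CCDC167, FIS1 and ELOB, among genes outside the lists averaging 100 normalized counts or more. Pearson's r was 0.998 to 0.999 over 6 libraries, which share depth and composition effects, and is given as a description. All 5 have 56.6% to 63.9% GC, and ATOX1 had 1351, 663 and 659 normalized counts in the shControl replicates, the same high replicate 1 as MVK and MVD. Their log2 fold changes lay between 0.02 and 0.07. The mean pattern of the enzymes was highest in shControl replicate 1 (0.17 in centred log2 CPM, against -0.11 in replicate 2 and -0.11 in replicate 3). HMGCS1 and IDI1 were instead lower in replicate 1, by 0.64 and 0.44 on the log2 scale, and GGPS1 was at 0.02. The mean pattern therefore does not describe these enzymes.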

How the data were processed

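The deposited values were raw read counts per Ensembl gene. Per the submitters' notes and the methods, the authors used fastp 0.20.0 for trimming, STAR 2.7.9a for alignment on hg38, and featureCounts 2.0; the annotation release and the strand and multi-mapping settings are not given in the sources used here. Symbols, lengths, GC content and loci came from GENCODE v44, which is on the same build. The tests ran in R 4.3.3 with edgeR 4.0.16 (filterByExpr, TMM, quasi-likelihood test, condition as the only term, Benjamini-Hochberg over all 12450 genes tested), with DESeq2 1.42.0 and mgcv 1.9.3 for alternatives. The standard error was the log2 fold change divided by the square root of F, and intervals used the t quantile at the fit's degrees of freedom. The fitting code was tested on simulated data. Log2 CPM used a prior count of 2. With 3 libraries a group, replicate number limits precision.

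The genes named are the 9 enzymes, SQLE, genes of the lists past the adjusted p or with the 3 smallest p in a list, and the 5 genes most alike in pattern; SREBF2, SCAP, TCP1, MMAB and ENSG00000285053 were added after their values were seen. Some genes that this rule or the marker lists include are not reported here. Members and lists were chosen with earlier results of these data known. Lists got counts and medians, not set tests. Alternatives were DESeq2, other size factors, other filters, the replicate number as a block, omission of each library in turn, and GC and length offsets.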

Additional observations from a re-analysis of the deposited data

How the results depend on the processing

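With all 6 libraries kept, no enzyme passed under DESeq2, RLE size factors, library size only, no filter or at least 10 counts in every sample, and none changed sign. The replicate block, with the number in the titles as a term, also called 0 enzymes, with MVD at 0.021. It called 396 genes in all against 400, and 1 sterol sensing gene. Same-numbered libraries correlated at 0.14, -0.43 and 0.54 in their deviations, and 3 of 6 correlated best with their own number. Deviations within groups of 3 libraries depend on each other, so these values cannot decide whether the libraries were paired.

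Leaving out 1 library gave 0 to 5 enzymes, 0 to 2 downstream enzymes, 0 to 5 prenyl genes, 0 to 2 acetyl-CoA genes, 0 to 1 relatives and 0 to 5 sensing genes past the adjusted p, and a median of the 9 enzymes of -0.024 to 0.22. The upper ends were all without shControl replicate 1. Changes of sign occurred for HMGCS1 (-0.24 to 0.083), MVK (-0.23 to 0.22), MVD (-0.18 to 0.30), RABGGTA (-0.42 to 0.0092) and BDH1 (-0.19 to 0.060). Calls over all genes went from 400 (354 lower, 46 higher) to 4264 without shControl replicate 1 (2300 lower, 1964 higher), to 163 and 211 without shControl replicates 2 and 3, and to 109 without any 1 shSQLE replicate; DESeq2 called 714. With GC and length offsets 2274 were called (1236 lower, 1038 higher), among them 1 of the 9 enzymes, 2 downstream, 1 acetyl-CoA, 2 relatives and 5 sensing genes, and HMGCS1 was at 0.049. The cause was not tested. With the offsets the median over all genes was 0.02, against -0.01.

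PMVK and GGPS1, at 104 to 231 normalized counts, carry the most counting error of the 9.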

Other observations

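The mitochondrial and ketone relatives of the first enzymes were not among the 9. ACAT1, the mitochondrial thiolase that catalyses the same reaction as ACAT2, had 1025, 1031 and 1085 normalized counts in the shControl replicates and 1312, 1285 and 1287 in the shSQLE replicates. Its groups did not overlap and every silenced library was higher, with a log2 fold change of 0.31 (95% interval 0.08 to 0.53, adjusted p = 0.183 from edgeR), which did not pass. It passed without shControl replicate 1 (0.29, adjusted p = 0.0157) and with GC and length offsets (0.24, adjusted p = 0.0178), and over all alternatives its adjusted p ranged from 0.0157 to 0.562. OXCT1, an enzyme of ketone body breakdown, was at 0.28 (adjusted p = 0.498), also without overlap, and passed with the offsets alone (0.31, adjusted p = 0.0105). BDH1 was at -0.09. Of the 6 relatives, 4 were tested and 0 passed, with a median of 0.19.

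Among 5 genes that supply cytosolic acetyl-CoA, 0 passed and the median was 0.11. SLC25A1, the mitochondrial citrate carrier, had 1701, 959 and 883 normalized counts in the shControl replicates and 1494, 1614 and 1162 in the shSQLE replicates, the order of libraries also seen in FDPS. At 0.27 it did not pass (adjusted p = 0.719), but it passed without shControl replicate 1 (0.63, adjusted p = 0.00253) and with the offsets (0.28, adjusted p = 0.0111). PDHA1, of pyruvate dehydrogenase, was at 0.25 (adjusted p = 0.318) with groups that did not overlap, and passed without shControl replicate 1 (0.28, adjusted p = 0.0255). CS, citrate synthase, was at 0.11.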
